A study of Mus musculus with 2 samples.

Results

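The semaphorins, ephrins, Slits and netrins and their receptors are cell surface and secreted proteins that steer growing axons, vessels and epithelia. The members were every gene whose symbol fell in one of these families, taken by name and not by level, and they came to 67 of the 43346 Ensembl genes measured. They divide into 34 ligands and 33 receptors in 11 families. RNA came from whole kidneys of B6NCrl mice on postnatal day 0, with 1 library from the 2 kidneys of each of 2 pups of the same mother, and sex was not recorded. The labels name no genetic change and no treatment. They give 1 group, newborn kidney, so the comparisons are between genes within the tissue, with the spread between littermates as the error. That spread leaves out variation between litters and any error that both libraries share, and with n = 2 no p-value was computed. Libraries held 41584961 and 48823952 expected counts for pups 1 and 2.

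Semaphorins signal through plexins, with neuropilins as co-receptors for most of the secreted class. Ephrins are held on the membrane and signal to Eph receptor tyrosine kinases on the neighbouring cell, and the signal can run both ways. Slits bind Robo receptors and mostly repel, whereas netrins attract through Dcc and neogenin and repel through the Unc5 receptors. In the developing kidney, Slit2 and Robo2 are known for restricting where the ureteric bud grows out, and semaphorins and ephrins for roles in bud branching and in vessels.

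At birth most of these genes were present in the kidney, at modest levels. Detection was set at 1 TPM (reads divided by transcript length and scaled to a fixed total) in both pups, and 52 of the 67 members met it, or 77.6%, where 61.5% of all protein-coding genes did. At a mean of 10 TPM or more stood 24 members, or 35.8%, against 40.4% of protein-coding genes. The members' median was 6.43 TPM (pup 1) and 6.21 (pup 2), and that of protein-coding genes 4.81 and 4.62. Among detected genes the order was the other way, with a median of 9.61 TPM for members and 17.8 for protein-coding genes. Of the ligands 29 of 34 were detected, and of the receptors 23 of 33. In bulk tissue, few cells with much of an RNA and many cells with little of it cannot be told apart.

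**Figure D1:**
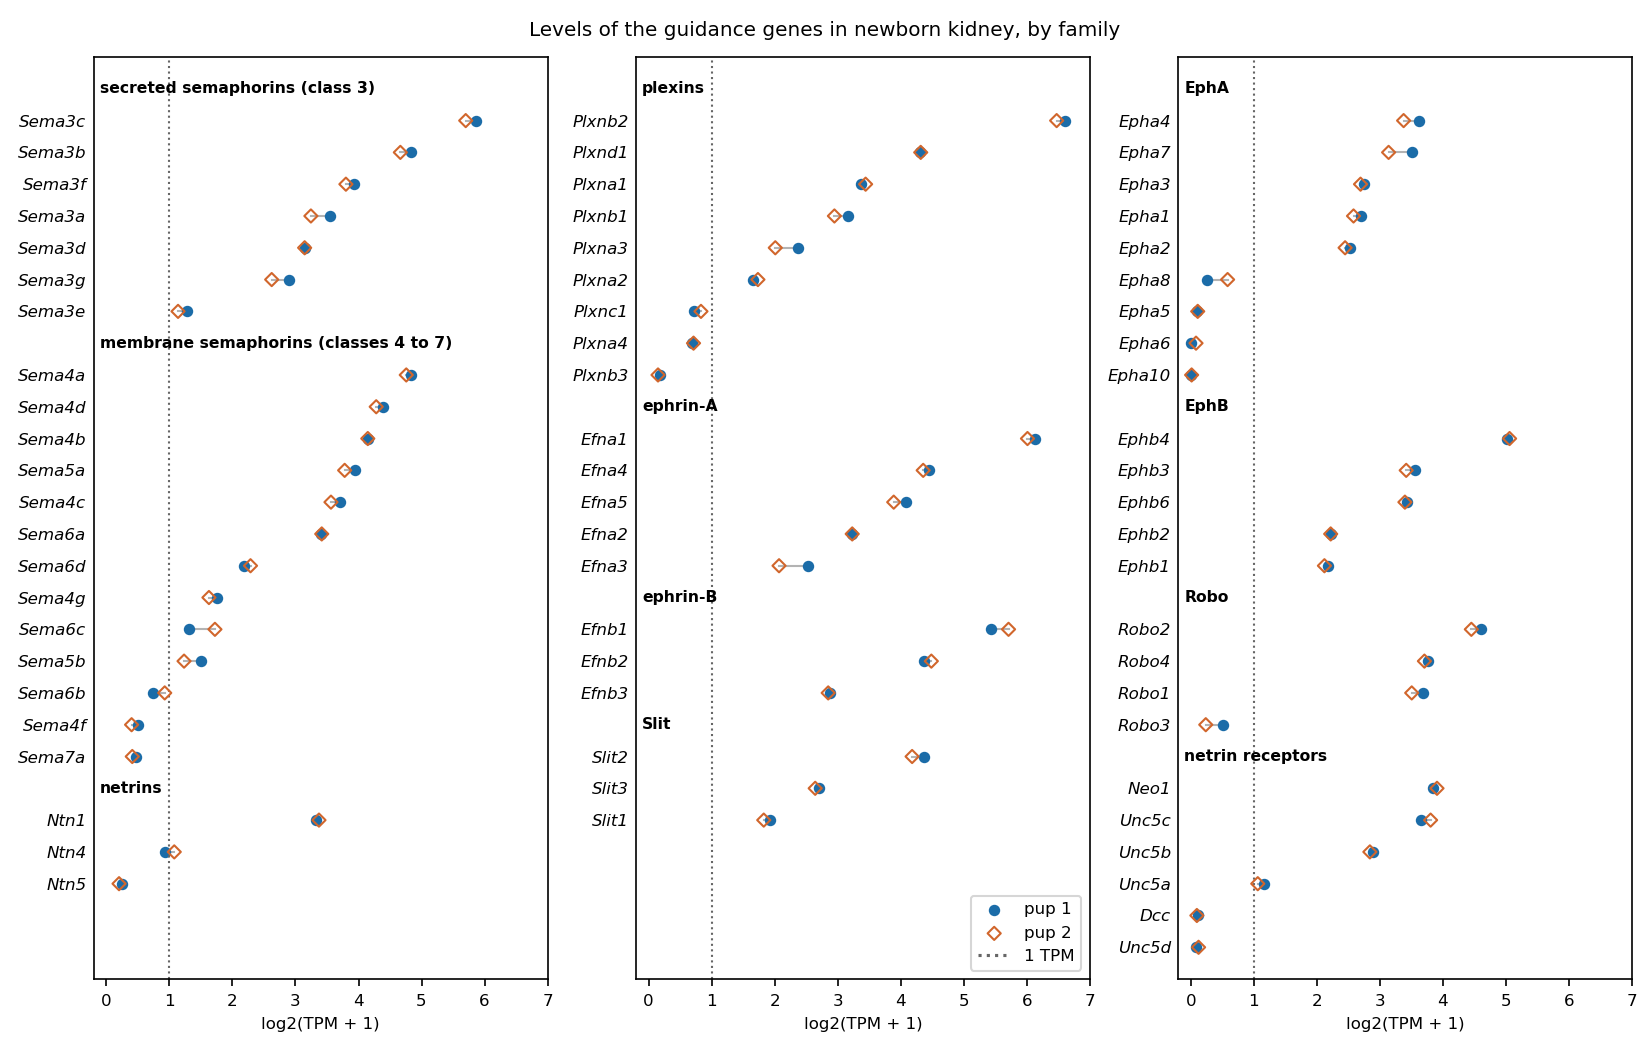
Deposited levels of the 67 members on the log2(TPM + 1) scale, by family, with filled circles for pup 1 and open diamonds for pup 2; the dotted line marks 1 TPM. Plxnb2, Efna1, Sema3c and Efnb1 lie farthest right, and the 15 members not detected lie at or left of the line in at least 1 pup.

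The tissue carried the markers of newborn kidney. All listed markers of nephron progenitors (5 of 5), early nephron (4 of 4), podocytes (5 of 5), proximal tubule (4 of 4), loop of Henle (3 of 3), ureteric bud and collecting duct (5 of 5), stroma (4 of 4), smooth muscle and pericytes (4 of 4), endothelium (5 of 5), lymphatic endothelium (3 of 3) and macrophages (3 of 3) were detected, and 2 of 3 of distal tubule, where Pvalb was below 1 TPM. Of 10 nerve and glia markers 3 were detected, Elavl4 and Stmn2 among them, and the list summed to 18.5 TPM in pup 1 and 16.6 in pup 2, with none at 0. Of 5 adrenal markers, Pnmt alone was detected, the list summed to 4.23 and 4.04 TPM, and Cyp11b2 was listed at 0 in both pups. The part that nerves or adrenal tissue have in the guidance gene levels was not tested.

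The secreted class 3 semaphorins were all detected, 7 of 7, with a family median of 9.59 TPM. Sema3c, known as a cue for vessels and the cardiac outflow tract, led them with 57.4 TPM in pup 1 and 51.0 in pup 2 (ENSMUSG00000028780.9, mm10, chr5:17574281-17730268, plus strand). Sema3b followed with 27.4 and 24.4 TPM, and Sema3f, which binds mainly neuropilin 2, with 14.3 and 12.9. In both pups these 3 genes stood in the same order with no overlap between them. Sema3a, the classical repellent of sensory axons that binds neuropilin 1, had 10.7 and 8.48 TPM. Sema3d had 7.87 and 7.85 TPM, and Sema3g, a product of endothelium, 6.43 and 5.16. Sema3e, which can bind plexin D1 without a neuropilin, was the lowest of the family with 1.42 and 1.20 TPM.

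The membrane semaphorins of classes 4 to 7 ranged more widely, and 10 of 13 were detected. Their family median was 3.71 TPM, and 5 members stood at 10 TPM or more. Sema4a, best known from immune cells, had 27.5 TPM in pup 1 and 26.1 in pup 2. Sema4d, a ligand of the B plexins, had 19.9 and 18.4 TPM, and Sema4b had 16.8 and 16.7. The first 3 therefore came from class 4, as did Sema4c, a ligand of plexin B2, with 12.1 and 10.8 TPM. Sema5a, a transmembrane member with thrombospondin repeats, had 14.4 and 12.7 TPM. Sema6a, which signals to plexins A2 and A4, was next with 9.60 and 9.68 TPM. Sema6d (3.54 and 3.88 TPM), Sema4g (2.36 and 2.09), Sema6c (1.48 and 2.30) and Sema5b (1.83 and 1.35) were detected at low levels. Sema6b (0.67 and 0.90 TPM), Sema4f (0.41 and 0.32) and the GPI-anchored Sema7a (0.38 and 0.33) did not reach 1 TPM in either pup.

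Among the plexins 1 gene held most of the TPM. Plxnb2, the receptor for several class 4 semaphorins, had 96.0 TPM in pup 1 and 87.9 in pup 2 (ENSMUSG00000036606.12, chr15:89155549-89180788, minus strand). It ranked first among the 67 members, lay above 92.1% of protein-coding genes, and held 68.7% and 67.4% of the TPM of all 9 plexins. A transcript with no coding sequence, described with the isoforms, held 56.5% and 56.9% of that TPM. Plxnd1, a receptor of endothelium, had 18.8 and 18.9 TPM. Plxna1 followed with 9.30 and 9.88 TPM and Plxnb1, a receptor of Sema4d, with 7.94 and 6.72. Plxna3 (4.19 and 3.03 TPM) and Plxna2 (2.15 and 2.33) were detected too. Plxnc1, the receptor of Sema7a, had 0.65 and 0.78 TPM, Plxna4 0.62 and 0.64, and Plxnb3, the lowest, 0.13 and 0.11. Of 9 plexins, 6 were detected, and the family median was 3.61 TPM.

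The ephrins were all detected, 5 of 5 of the GPI-anchored A class and 3 of 3 of the transmembrane B class. Their medians of 14.9 and 20.5 TPM were the highest of the 11 families. Efna1 had 68.9 TPM in pup 1 and 63.5 in pup 2 (ENSMUSG00000027954.5, chr3:89271733-89281142, minus strand). Its values overlapped those of no other member. Efna4 had 20.9 and 19.5 TPM, Efna5 16.0 and 13.8, Efna2 8.36 and 8.39, and Efna3, the lowest, 4.80 and 3.20. In the B class, Efnb1 had 42.2 and 51.4 TPM and overlapped Sema3c. Efnb2, the ephrin of arterial endothelium, had 19.6 and 21.4 TPM, and Efnb3 had 6.37 and 6.21.

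The Eph receptors had lower family medians than the ephrins. All 5 B receptors were detected and their median was 9.64 TPM. Detection covered 5 of the 9 A receptors, whose median was 4.62. Ephb4, the receptor of venous endothelium, led both classes with 31.4 TPM in pup 1 and 32.3 in pup 2. Ephb3 had 10.8 and 9.69 TPM, and Ephb6, which lacks kinase activity, 9.73 and 9.54. The other B receptors were lower, Ephb2 with 3.70 and 3.66 TPM and Ephb1 with 3.52 and 3.35. Among the A receptors Epha4, which binds ephrins of both classes, had 11.4 and 9.39 TPM and overlapped Epha7 with 10.4 and 7.81. Epha3 (5.69 and 5.47 TPM), Epha1 (5.53 and 4.99) and the epithelial receptor Epha2 (4.77 and 4.46) lay close together. Epha8 (0.20 and 0.50 TPM) and Epha5 (0.07 and 0.08) were not detected. Epha6 had 0 counts in pup 1 and 3 in pup 2, and Epha10, which like Ephb6 lacks kinase activity, 0 and 2, at or under the 3 counts that a count of 0 allows.

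Slit and Robo genes were led by the pair known from ureteric bud outgrowth. Slit2 had 19.7 TPM in pup 1 and 17.1 in pup 2 (ENSMUSG00000031558.11, chr5:47983138-48307733, plus strand), and Robo2 23.2 and 20.9 (ENSMUSG00000052516.13, chr16:73891839-74411825, minus strand). Slit3 had 5.51 and 5.25 TPM and Slit1 2.81 and 2.55. All 3 Slits were thus detected, in an order without overlap. The endothelial receptor Robo4 had 12.6 and 12.1 TPM and Robo1 11.9 and 10.4. Robo3, known from commissural axons, had 0.43 and 0.18 TPM, from 47 and 31 counts, and was the only Robo not detected.

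Of the 3 netrins only Ntn1 was detected in both pups. It had 8.98 TPM in pup 1 and 9.36 in pup 2. Ntn4, a netrin of basement membranes, had 0.91 and 1.11 TPM and so crossed the detection level in pup 2 alone, and Ntn5 had 0.19 and 0.15. Among the netrin receptors Neo1 (neogenin, also a receptor of the repulsive guidance molecules) had 13.4 and 14.0 TPM, Unc5c 11.6 and 13.0 and Unc5b, the Unc5 receptor of vessels, 6.41 and 6.17. Unc5a was near the detection level with 1.23 and 1.09 TPM. Dcc, the receptor of attraction in axons, had 0.08 and 0.07 TPM from 12 and 14 counts, and Unc5d, at the same mean, 0.06 and 0.09 from 16 and 28 counts.

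Placed in order of mean TPM, 47 of the 66 pairs of adjacent members had pup values that overlapped, and 19 did not. Plxnb2 and Efna1 were each apart from their neighbours, and most members lower down were not.

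Ligands were set against receptors they are known to bind, as the difference of log2(TPM + 1) within each pup. A difference was called where both pups had the same sign and the smaller value exceeded 0.44, the 95th percentile of the difference between pups over 15429 genes. The scale understates differences of low genes. Of 25 ligand and receptor pairs 19 were called, 12 with the ligand higher and 7 with the receptor higher. No count over other gene pairs was set beside these, so the counts are not a result particular to ligands and receptors. These pairs, and those within families below, were chosen with earlier results of these data known. A gene may stand in several pairs, so the pairs are not independent.

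In the ephrin pairs, whose ligands were Efna1, Efna5, Efnb1 and Efnb2 alone, the ligand was mostly the higher. Efna2, Efna3, Efna4 and Efnb3 were in no pair, so this does not extend to all ephrins. Efna1 exceeded Epha2 by 3.60 in pup 1 and 3.56 in pup 2, or 14.3 times by mean TPM. Efnb1 exceeded Ephb2 by 3.20 and 3.49 and Ephb3 by 1.87 and 2.29. Efna5 lay closer to its receptors, above Epha7 by 0.57 and 0.75 and above Epha4 by 0.46 and 0.51. The arterial and venous pair ran the other way, since Efnb2 minus Ephb4 was -0.65 and -0.57, whereas Efnb2 exceeded Epha4 by 0.74 and 1.11.

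For the semaphorins the direction varied from pair to pair. Plxnb2 stood above both of its ligands tested, with Sema4c minus Plxnb2 at -2.89 in pup 1 and -2.91 in pup 2 and Sema4d minus Plxnb2 at -2.22 and -2.19. With protein-coding transcripts alone these means shrank to -1.66 for Sema4c and -1.15 for Sema4d. Against the other B plexin the same ligand was the higher, and Sema4d minus Plxnb1 was 1.22 and 1.33. Sema3c exceeded Plxnd1 by 1.57 and 1.38, and by a mean of 0.83 with protein-coding transcripts alone, where Sema3c stood at 34.1 TPM. Sema3e minus Plxnd1 was -3.03 and -3.18. Sema6a exceeded Plxna2 by 1.75 and 1.68 and Plxna4 by 2.71 and 2.70, and Sema6d minus Plxna1 was -1.18 and -1.16. Sema3a minus Plxna1 changed sign between the pups, at 0.18 and -0.20. Sema5a minus Plxna1, at 0.58 and 0.34, passed the limit in pup 1 alone and was not called. Sema7a minus Plxnc1, at -0.26 and -0.42, was within the limit in both pups.

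Slit2 and Robo2 did not differ beyond the limit, with Slit2 minus Robo2 at -0.23 in pup 1 and -0.27 in pup 2. Slit2 exceeded Robo1 by 0.68 and 0.68, and Slit3 minus Robo1 was -0.99 and -0.86. When only TPM of protein-coding transcripts was counted, the mean for Slit2 minus Robo1 turned to -0.29, inside that setting's limit of 0.34, and that for Slit2 minus Robo2 moved to -0.85. Ntn1 stood far above Dcc, by 3.21 and 3.28. Ntn1 minus Neo1 was -0.53 in both pups. Ntn1 minus Unc5b, at 0.43 and 0.53, passed the limit in pup 2 alone and was not called. Ntn1 minus Unc5c, at -0.34 and -0.43, was within the limit in both pups and had a mean of 0.68 with protein-coding transcripts alone.

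**Figure D2:**
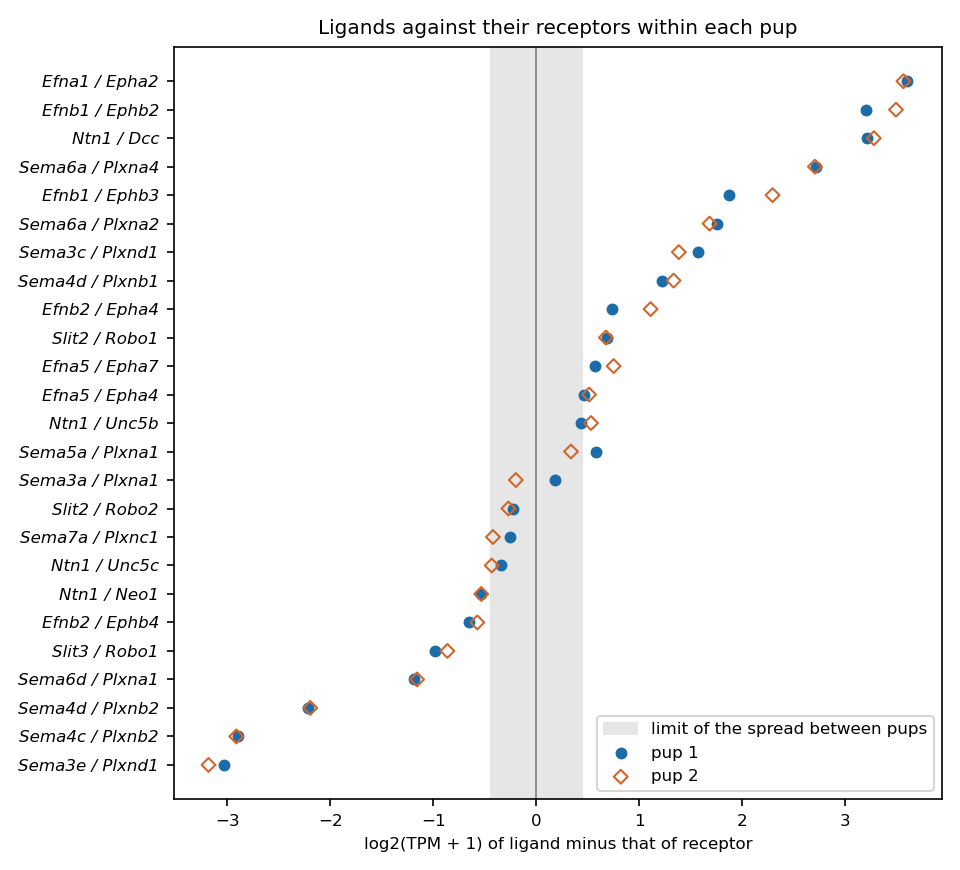
Difference between ligand and receptor on the log2(TPM + 1) scale for 25 pairs, with filled circles for pup 1 and open diamonds for pup 2; the grey band spans the limit of 0.44 on either side of 0. Efna1 over Epha2 lies at the top, Sema3e under Plxnd1 at the bottom, and the 6 pairs not called have at least 1 pup inside the band.

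Of 16 pairs within the families 15 were called, again with no count over other gene pairs beside them. Plxnb1 minus Plxnb2 was -3.44 in pup 1 and -3.53 in pup 2, with a mean of -2.30 with protein-coding transcripts alone. Plxna1 exceeded Plxna2 by 1.71 and 1.71. Ephb2 minus Ephb4 was -2.79 and -2.84, and Epha2 minus Epha4 -1.10 and -0.93. Thus each of these families had 1 member well above another. Robo1 minus Robo2 was -0.91 and -0.95, Slit2 exceeded Slit3 by 1.67 and 1.54, and Ntn1 exceeded Ntn4 by 2.39 and 2.30. Unc5b minus Unc5c was -0.77 and -0.96 and turned to a mean of 0.20, inside the limit, with protein-coding transcripts alone. Sema3a minus Sema3f, at -0.39 and -0.56, was the pair not called.

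Several gene levels were held in large part by transcripts not annotated as protein-coding. For 56 members with at least 50 expected counts in both pups, the share of gene TPM in protein-coding transcripts was summed. Its median was 99.1%, the same as for all protein-coding genes, and 35 members had at least 90% in both pups. Plxnb2 (41.3% in pup 1 and 41.1% in pup 2), Unc5c (47.8% and 39.5%) and Slit2 (49.4% and 46.9%) had under 50% in both pups. These are 3 of 56 members, or 5.36%, against 6.48% of 13558 protein-coding genes, and 52 members had at least 50% in both, against 91.8% of those genes. Plxna3 lay on either side of that level, with 47.4% and 68.1%.

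TPM divides reads by length, so short transcripts weigh more by TPM than by reads. Plxnb2-205, an annotated processed transcript of 841 nt, had 54.2 and 49.99 TPM from 1193 and 1353 of the 8615 and 9665 expected counts of the gene. All 834 of its bases in the later annotation lie within exons of the leading coding transcript Plxnb2-202. By expected counts, protein-coding transcripts held 85.8% and 85.6% of Plxnb2. With protein-coding transcripts alone Plxnb2 stood at a mean of 37.9 TPM, under Efna1, whose transcripts were all coding, and Efnb1 (46.3), and still above its listed ligands. Unc5c-206, a processed transcript of 357 nt, held 33.5% and 44.6% of the TPM of Unc5c from 29.8 and 54.4 expected counts, and by expected counts 87.4% and 87.3% of Unc5c was coding. By expected counts none of the 56 members was under 50% coding in both pups, against 3.33% of protein-coding genes.

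**Figure D3:**
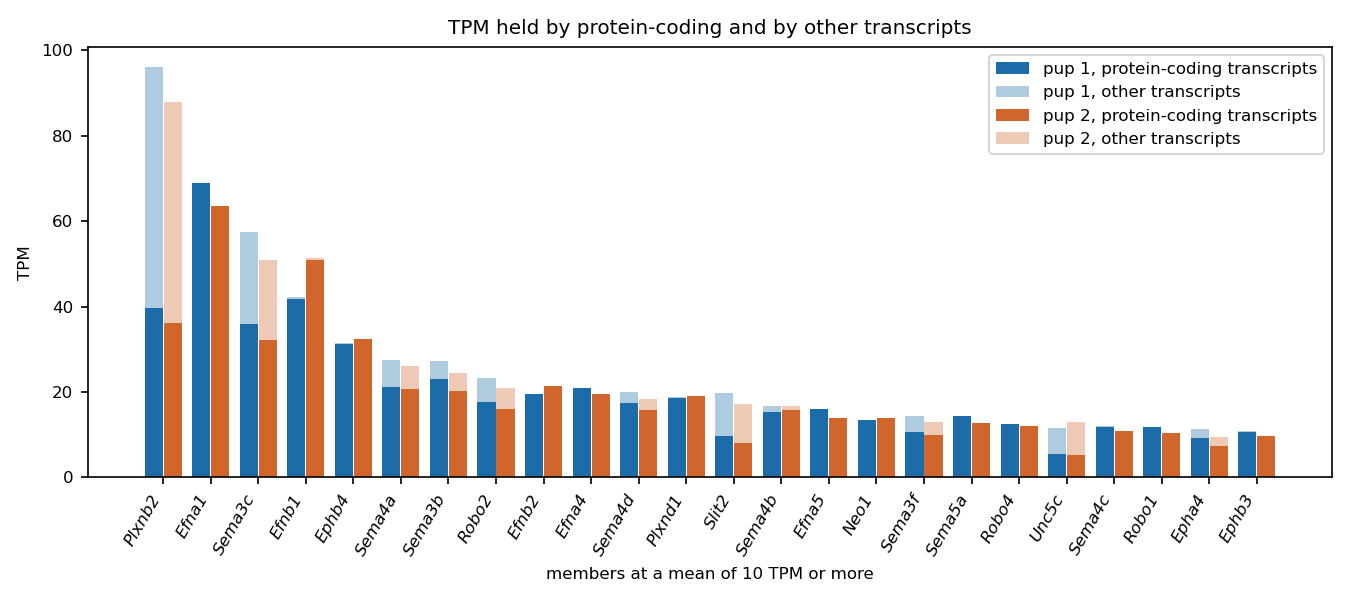
TPM of the 24 members at a mean of 10 TPM or more, as bars from 0 for each pup, with the dark part from protein-coding transcripts and the pale part from other transcripts. The pale part is the larger in Plxnb2, Slit2 and Unc5c, and is near 0 in Efna1, Efnb1 and Ephb4.

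In some members a transcript with no coding sequence runs on from an exon into the intron after it. In Slit2 the retained intron transcript Slit2-207 held 38.6% of gene TPM in pup 1 and 39.8% in pup 2, from 716 and 788 expected counts. Sema3c-205 held 25.4% and 20.8% of Sema3c, Robo2-209 held 20.96% and 20.1% of Robo2, and Epha7-208, an annotated processed transcript, held 20.98% and 23.3% of Epha7. Not every such share was as close in the littermates, as Sema6a-209 held 22.3% and 14.3% of Sema6a. Slit2-207, Sema3c-205, Robo2-209 and Epha7-208 were picked from transcripts with a set least share in both pups, so their likeness is partly set by the choice. The following windows of 60 bases, read from the GENCODE transcripts of GRCm38, show where each runs past the exon end used by the leading coding transcript, with 30 exon bases in lower case and the first 30 intron bases in capitals. They are shown because reads over the capitals separate these transcripts from the spliced RNA. In all 4 the capitals open with GT, the usual start of an intron.
Slit2-207, chr5:48182288-48182347, plus strand: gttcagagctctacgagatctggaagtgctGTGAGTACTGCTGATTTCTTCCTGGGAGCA
Sema3c-205, chr5:17576941-17577000, plus strand: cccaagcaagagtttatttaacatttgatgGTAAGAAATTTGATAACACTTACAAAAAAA
Robo2-209, chr16:74352521-74352580, minus strand: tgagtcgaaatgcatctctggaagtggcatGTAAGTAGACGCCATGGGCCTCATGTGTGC
Epha7-208, chr4:28871967-28872026, plus strand: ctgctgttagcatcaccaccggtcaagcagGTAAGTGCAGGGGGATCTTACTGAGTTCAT

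From the exon end the transcripts continue into the intron for 840 bases in Slit2, 1208 in Sema3c, 2756 in Robo2 and 1805 in Epha7. Total RNA holds unspliced RNA beside finished mRNA, and which of them gave these reads was not tested. The transcript of highest TPM differed between the pups in 3 of 56 members, or 5.36%, against 5.52% of protein-coding genes. These were Sema4g (Sema4g-201 in pup 1, Sema4g-203 in pup 2), Sema6d (Sema6d-202 and Sema6d-206) and Unc5c (Unc5c-202 and Unc5c-206). In pup 1 the deposited TPM intervals of both transcripts overlapped in each gene, so the leader was not settled. For Sema4g they were 0.51 to 1.87 (Sema4g-201) and 0.11 to 1.63 (Sema4g-203).

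The members are long genes, and some lie next to each other at different levels. Their median span was 46.3 kb, against 17.4 kb for all protein-coding genes. More than 100 kb was spanned by 31 of 67 members and by 2492 of 21951 protein-coding genes. There were 12 pairs of members adjacent in the order along a chromosome and within 1 Mb. Robo4 and Robo3 lie 553 bases apart on chromosome 9 with their ends facing, at means of 12.3 and 0.305 TPM. Sema3b and Sema3f, 72.3 kb apart on chromosome 9, were both above 10 TPM, with means of 25.9 and 13.6. Ephb2 and Epha8, 93.4 kb apart on chromosome 4, had means of 3.68 and 0.35 TPM. Sema3d and Sema3a, 536 kb apart on chromosome 5, were closer in level, with means of 7.86 and 9.59 TPM. In each pair named here the genes' pup values did not overlap, so none of these neighbours stood at the same level.

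The ephrin-A genes Efna1, Efna3 and Efna4 form a run on the minus strand of chromosome 3, with gaps of 32.8 and 10.4 kb, at means of 66.2, 4.00 and 20.2 TPM. Their 250 bases before a RefSeq start (GRCm38.p6), the start nearest to that of the leading coding transcript, are shown to set neighbours of unlike level side by side, with CG in capitals. CG was counted on the printed strand; it reads the same on the other.
Efna1, chr3:89279646-89279895, minus strand: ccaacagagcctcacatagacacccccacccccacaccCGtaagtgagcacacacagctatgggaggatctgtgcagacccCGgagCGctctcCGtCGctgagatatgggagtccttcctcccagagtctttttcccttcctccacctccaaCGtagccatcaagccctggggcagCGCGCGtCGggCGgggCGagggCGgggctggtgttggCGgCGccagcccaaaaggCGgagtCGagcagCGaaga
Efna3, chr3:89322940-89323189, minus strand: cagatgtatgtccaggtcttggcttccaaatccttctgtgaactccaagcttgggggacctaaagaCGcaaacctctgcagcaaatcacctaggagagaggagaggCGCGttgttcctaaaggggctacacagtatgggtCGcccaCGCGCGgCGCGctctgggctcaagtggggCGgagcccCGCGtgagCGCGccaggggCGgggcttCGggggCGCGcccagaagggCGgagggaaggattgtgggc
Efna4, chr3:89338029-89338278, minus strand: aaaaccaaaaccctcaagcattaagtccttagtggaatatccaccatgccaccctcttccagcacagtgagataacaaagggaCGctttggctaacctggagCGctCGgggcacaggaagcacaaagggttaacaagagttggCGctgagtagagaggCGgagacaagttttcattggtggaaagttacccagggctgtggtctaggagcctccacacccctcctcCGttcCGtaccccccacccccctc

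These windows hold 18 CG in Efna1, 19 in Efna3 and 7 in Efna4, so the count did not follow the level among the 3. The Efna1 window lies inside the annotated gene, upstream of the start of its leading coding transcript. Over the 50 members with a matched promoter, the median ratio of observed to expected CG was 0.669, against 0.588 for 14971 protein-coding genes, and 58.0% of members and 48.9% of genes had at least 0.6. The letters TATAAA, searched on both strands, were in 2 of the 50 member promoters, or 4.00%. Of the 14971 promoters of protein-coding genes 1768, or 11.8%, had them, and a share resting on 2 genes is imprecise.

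Between the pups the members differed little, as did all genes. Of the 67, 57 had at least 50 expected counts in either pup, and their median log2 ratio of pup 2 over pup 1 was 0.00 on scaled CPM (counts scaled to the library total) + 0.1. For 55 of 57 members the ratio was under 0.5 in size, as it was for 14578 of 15150 genes. At 2-fold, 1 member was called higher in pup 2 and 0 lower, against 0.442% and 0.158% of 15150 genes. This was Epha8, with 27 expected counts in pup 1 and 85 in pup 2, a log2 ratio of 1.32 and an exact binomial interval of 0.81 to 2.13 for counting error alone. Its level was under 1 TPM in both pups, and with CPM + 0.5 the ratio was 0.98. Sema6c, with 143 and 261 counts, had 0.65 (0.36 to 0.97), and Efnb1, with 3916 and 5888, had 0.38 (0.32 to 0.44). On the TPM scale 39 of the 52 detected members, or 75.0%, were higher in pup 1, as were 71.5% of detected protein-coding genes. That scale moved the median of 15429 genes by -0.08 (log2) toward pup 1.

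**Figure D4:**
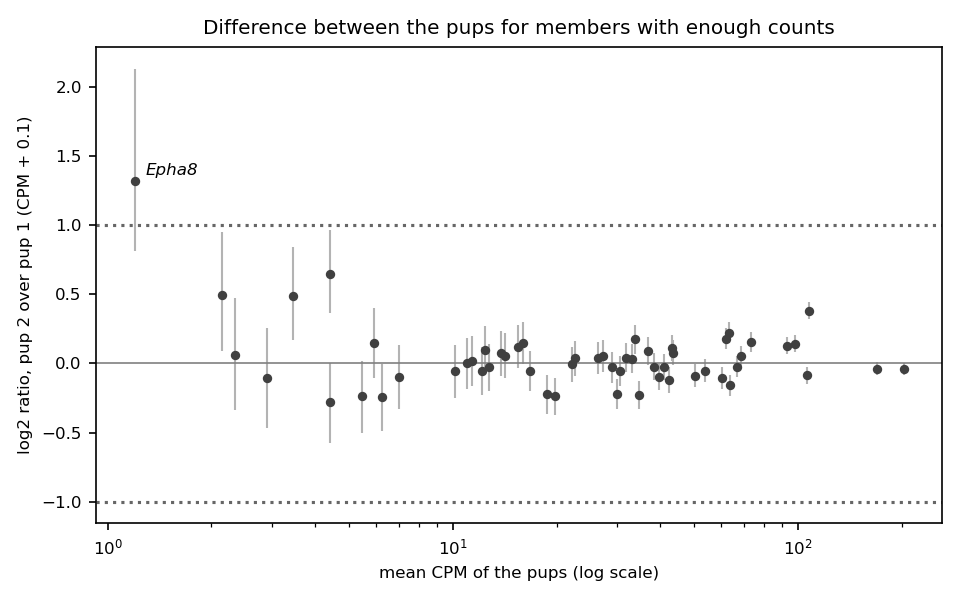
Log2 ratio of pup 2 over pup 1 against mean CPM for the 57 members with enough counts; points are ratios of scaled CPM + 0.1, bars are exact 95% binomial intervals for counting error, and dotted lines mark 2-fold. Epha8 alone lies past a dotted line, at 1.32.

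Other genes of the same pathways were also present. Of 50 partner genes that are no members, 49 were measured and 43 detected. The highest were Dag1 (dystroglycan, which binds Slits) with 135 TPM in both pups, Dpysl2 (Crmp2, a relay of semaphorin 3A) with 110 and 96.2, and the semaphorin co-receptor Nrp1 with 62.4 and 59.3. Nck1 (57.3 and 59.8 TPM), Nck2 (34.5 and 34.3), Rasa1 (41.2 and 41.2) and Ablim1 (33.8 and 32.2) act inside the cell, and Adam10 (59.9 and 56.3), a protease, sheds ephrins. The other neuropilin, Nrp2, had 4.40 and 4.42 TPM, far under Nrp1 in both pups. Below 1 TPM were Lrrc4c, Timd2, Rnd1, Draxin, Dscaml1 and Dscam, with Draxin, a netrin partner, at 0.20 and 0.11 and Dscam, another netrin receptor, at 0.02 and 0.04.

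Some members share sequence or exons with other genes, which bears on their values. Expected counts were more than 0.005 from a whole number in 8 of 67 members. At most 2.60% of the 50-base windows of a member occurred in another gene, in Epha1. Epha1 also shares 236 exonic bases, 6.01% of its own, with Zyx on the opposite strand at 81.8 and 70.7 TPM, and no source used here says whether counting used strand. Ntn5 shares 23.4% of its exonic bases with Sec1, on the opposite strand at 0.26 and 0.11 TPM, so its low value is uncertain. Genes on the opposite strand under 1 TPM also share 14.1% of Efna3, 10.7% of Plxna1 and 10.5% of Efna4. Another, at 1.20 and 0.93 TPM, shares 7.27% of Sema4c.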

How the data were processed

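Total RNA longer than 200 nt (10 ng per library, spike-ins added, mirVana extraction per the labels' protocols) was sequenced. Per the file headers, the authors deposited expected counts, TPM and FPKM per gene and transcript, posterior mean TPM with interval bounds (other values), and the percent of gene TPM per transcript. The deposited text names mm10 and GENCODE M4; aligner, versions and strand: not given in the sources used here.

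Genes were matched by Ensembl identifier to GENCODE M21 (42462 of 43346 named), which supplied symbols, coordinates and transcript types; 325 of 327 member transcripts matched. Depth of 41584961 and 48823952 expected counts sets floors (3 counts) of 0.0721 and 0.0614 CPM, which like the intervals cover only counting error. Families were described by counts and medians beside all protein-coding genes. Ratios between pups used rounded expected counts with TMM factors (edgeR 4.0.16, R 4.3.3; DESeq2 1.42.0 size factors as an alternative), exact 95% binomial intervals and no p-value. Members, pairs, partner and marker lists were chosen with earlier results of these data known. Values were given for members at 10 TPM or more, each family's lowest, genes of the pairs and members past 2-fold, and for the others by value or count; partners named were the 8 highest, both neuropilins and those below 1 TPM. Sema6a and Dcc carry no printed sequence. Steps were tested on simulated data. Work was done in Python 3.11.15 (SciPy 1.17.1, NumPy 2.4.6, pandas 2.3.3; figures in Matplotlib 3.10.9).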

Additional observations from a re-analysis of the deposited data

How the results depend on the processing

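Detected members numbered 56 at 0.5 TPM, 48 at 2 TPM, 53 by posterior mean TPM and 51 with protein-coding transcripts alone (an alternative added after seeing the data), against 52. The member median was 5.93 TPM with protein-coding transcripts alone, where family medians were 3.30 for membrane semaphorins, 2.03 for plexins, 4.38 for Slits and 3.25 for netrin receptors. Over detected members alone they were 10.5 for membrane semaphorins, 8.46 for plexins, 5.58 for EphA, 9.17 for netrins and 9.30 for netrin receptors. By posterior mean TPM they were 9.94 for EphB, 5.59 for Slits and 3.91 for netrin receptors. With CPM + 0.5, 0 members passed 2-fold; no p-value was computed, and DESeq2 size factors gave 1. Of 41 pairs, 34 were called, and 36 and 35 without replicate 1 and 2 in turn. With protein-coding transcripts alone the mean changed sign for Slit2 against Robo1 (-0.29) and Unc5b against Unc5c (0.20). Both means were inside that setting's limit of 0.34, so neither pair was called the other way. The mean for Ntn1 against Unc5c, a pair not called before, also changed sign, from -0.39 to 0.68, which is past that limit. With 0.1 TPM added in place of 1, Efna5 against Epha4 (0.52), Efnb2 against Ephb4 (-0.63) and Ntn1 against Neo1 (-0.58) were no longer called, since at least 1 pup did not pass the limit, which was then 0.60. By deposited FPKM 1 more pair was called and by posterior mean TPM 2 more, and none of the 34 was lost. Members with most of their TPM in protein-coding transcripts numbered 52 of 56, and 51 by posterior mean TPM. The causes were not tested. Depth limits Epha6 and Epha10 to values at or under 3 counts. No paired analysis was possible because the labels give 1 group, so no groups share replicate numbers; gene pairs were compared within each pup.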
